A study of Homo sapiens with 2 samples.

Results

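The unfolded protein response and the integrated stress response were followed in HEK-293 cells that had received a miR-204 mimic, through 40 genes listed by name for their known place in these pathways. The rule for membership uses no measured value, but the list was drawn up with earlier results of these data known. Of these, 39 had a probe under that gene name, and all 39 were well above background in both RNAs on both arrays. They were read against 17230 gene names measured in the same way, of 30484 gene names on the array. MANF, a secreted factor induced by ER stress, was not listed under that name. Its older symbol ARMET had 1 probe, with log2 ratios of 0.48 and -0.01 on the first and the dye-swap array, and it was kept out of all counts.

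Proteins that enter the secretory pathway fold in the endoplasmic reticulum (ER). When unfolded proteins build up there, the sensors IRE1 (ERN1), PERK (EIF2AK3) and ATF6 start the unfolded protein response, which raises chaperones, folding enzymes and the machinery that removes misfolded proteins. PERK and its relatives also phosphorylate eIF2alpha, which lowers general translation, favours translation of ATF4 and turns on genes of amino acid supply and of cell death, the integrated stress response. HSPA5, DDIT3 and spliced XBP1 are the usual readouts of ER stress.

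HEK-293 is a human embryonic kidney line. The control cells received scramble oligos and the other cells a miR-204 mimic, a synthetic RNA that supplies the microRNA, at 75 nM and for 48 h. No ER stressor was named for either. The RNAs were compared on 2 arrays of 2 colours. The first array carried control RNA in Cy3 and miR-204 RNA in Cy5, and the dye-swap array carried them in the opposite dyes. No other transfection was named, so the arrays were counted as 1 replicate, and the agreement of the arrays shows technical spread only. No result rests on a test between the conditions, and the tests given near the end were run only as alternatives. Mature miR-204 itself was not analysed here.

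As a check of the line, 7 of 8 markers of HEK-293 and epithelial lines were well above background in all 4 channels, among them KRT8, KRT18, VIM and the neurofilament gene NEFL. Only PAX2 was not. Of the endothelial and fibroblast markers, 2 of 6 were measured (COL1A1 and DCN). The blood cell markers PTPRC and CD3E and the endothelial markers PECAM1 and VWF were not well above background in all channels. In bulk RNA, a change in the share of cells and a change in RNA per cell cannot be told apart.

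The sequences of the microRNA are shown because they define the perturbation. The labels do not say which arm the mimic carries. Both arms are given as RefSeq lists them (GRCh38.p14, minus strand of chromosome 9), with the seed, bases 2 to 8, in capitals. The 5p arm lies at chr9:70810031-70810052 and the 3p arm at chr9:70809993-70810013.
hsa-miR-204-5p: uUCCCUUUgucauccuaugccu
hsa-miR-204-3p: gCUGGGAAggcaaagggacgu

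The promoter elements through which the responses are known to act are shown next, because members of different function can share them. RefSeq promoters of GRCh38.p14, from 250 bases before to 50 bases after each start, were found for 37 of the 40 genes, the exceptions being ATF2, EIF2AK1 and PDIA3. Both strands were searched. The ER stress element, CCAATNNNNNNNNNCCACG, is read by ATF6 and XBP1 together with NF-Y, and was in the promoters of 8 of the 37 genes (21.6%), against 25 of all 27305 genes in the table (0.0916%). Each is printed along the strand on which the element reads, in 30 bases, with the fixed letters of the element in capitals.
HSPA5, chr9:125241385-125241414, minus strand: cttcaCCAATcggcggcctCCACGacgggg
HSP90B1, chr12:103930211-103930240, plus strand: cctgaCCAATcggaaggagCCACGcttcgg
CALR, chr19:12938378-12938407, minus strand: accgaCCAATgatggtcgaCCACGcgtggg
CANX, chr5:179698773-179698802, plus strand: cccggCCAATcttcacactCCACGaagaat
PDIA6, chr2:10812847-10812876, minus strand: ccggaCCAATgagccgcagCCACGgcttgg
XBP1, chr22:28800597-28800626, minus strand: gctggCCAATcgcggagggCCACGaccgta
SERP1, chr3:150546705-150546734, plus strand: aaacaCCAATtcgctgtctCCACGcatgag
CRELD2, chr22:49918548-49918577, minus strand: atggcCCAATccgagttcgCCACGagaggt

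A related form with 1 free base, ATTGGNCCACG, was in 3 of the 37 promoters (8.11%) and in 19 of all 27305 (0.0696%). HSP90B1 held another copy of the first element, and HYOU1 held 2 copies of this form, of which 1 is shown.
HERPUD1, chr16:56932016-56932045, plus strand: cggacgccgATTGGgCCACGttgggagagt
HYOU1, chr11:119057265-119057294, plus strand: cgcgtactcATTGGaCCACGtcccaggccc
SDF2L1, chr22:21642104-21642133, minus strand: agggttttgATTGGtCCACGcttccgagga

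The element bound by ATF4 with C/EBP proteins was searched as TGATGNAA and was in 5 of the 37 promoters (13.5%), against 1217 of all 27305 (4.46%). Those of ASNS, CHAC1 and PPP1R15B, whose ratios are given further on, are shown. HERPUD1 and ATF3 were the others. The motif TGACGTGG, bound by XBP1 and ATF6, was in HYOU1 alone among the members, overlapping its other copy of the related form, and in 0.927% of all genes in the table. A match is a match of letters and does not show binding.
ASNS, chr7:97872458-97872487, minus strand: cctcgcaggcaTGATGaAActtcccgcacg
CHAC1, chr15:40953251-40953280, minus strand: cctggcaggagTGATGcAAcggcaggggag
PPP1R15B, chr1:204412026-204412055, minus strand: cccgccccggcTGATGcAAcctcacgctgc

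As a group, the members of both responses differed little between miR-204 and control RNA. The median log2 ratio, miR-204 to control, was 0.04 over the 39 genes and 0.01 over all 17230 gene names, with a spread over genes (SD) of 0.21 and 0.24. A gene's ratio is the mean over its probes of the quantile normalized log2 difference, averaged over both arrays. A total of 33 genes (84.6%) lay within 0.25 of 0, against 76.0% of all gene names. PDIA3 and SERP1 stood lowest, and PPP1R15B, CANX and CALR highest.

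A call asked for a mean past a fold limit and for 1 sign on both arrays. Of the 39 members, 0 were lower by 2-fold, where 0.0580% of all gene names were, and 0 were higher, where 0.0987% were. By 1.5-fold, 1 of 39 members was lower, PDIA3, where 0.992% of all gene names were, and 0 were higher, where 1.33% were. Regardless of size, 6 members were lower on both arrays, against 21.3% of all gene names, and 11 were higher on both, against 25.6%. The other 22 had opposite signs on the arrays, as did 9113 of the 17230. Across the 39 genes the ratios on the first array correlated with those on the dye-swap array at -0.09 (Pearson's r) and -0.23 (Spearman's rho), and across all gene names at -0.08 by either measure. These genes share 2 arrays and are not independent replicates, so the correlations only describe how little the arrays had in common.

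**Figure D1:**
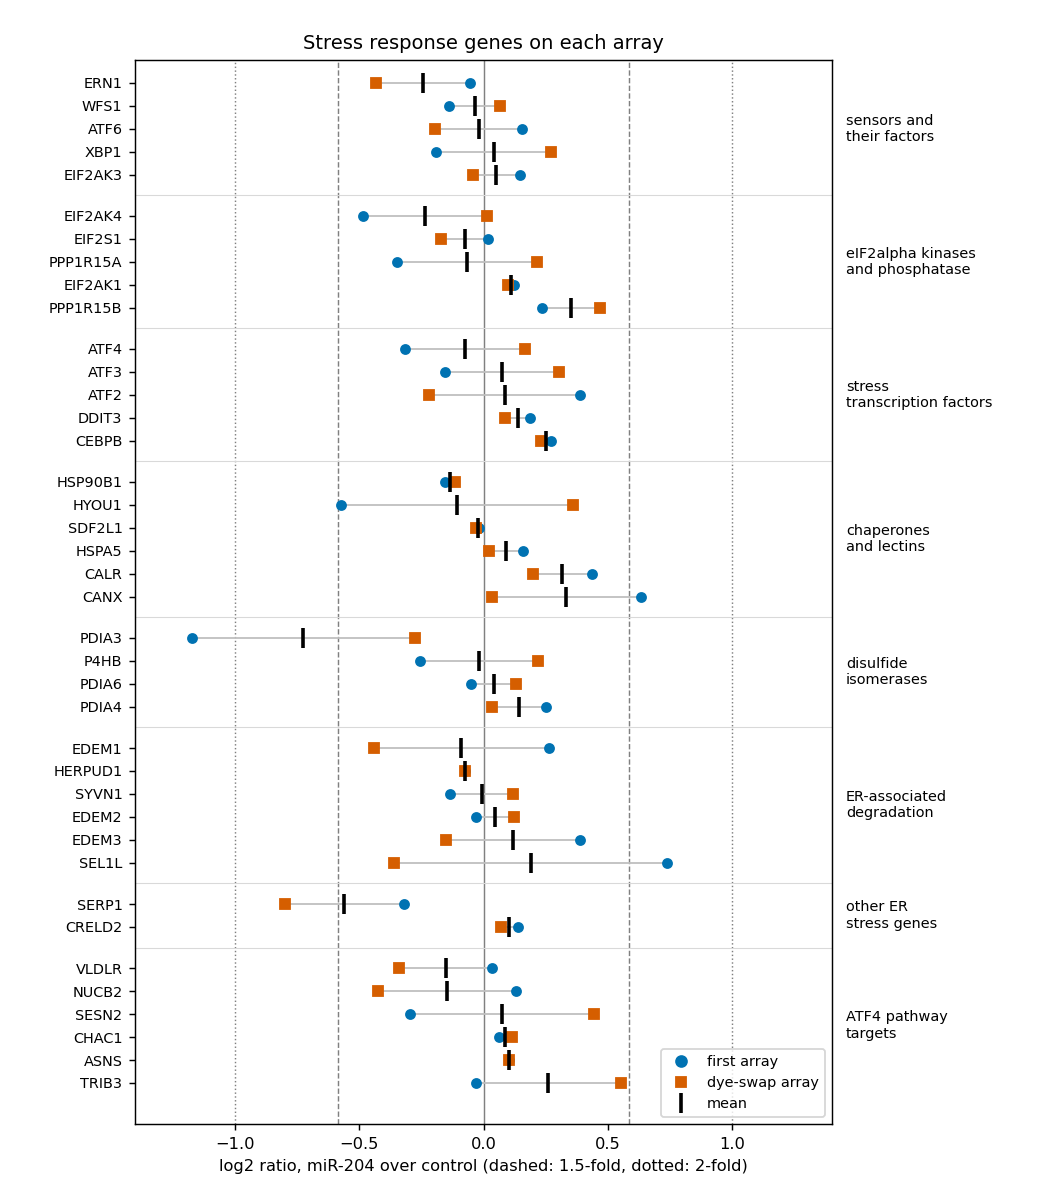
Log2 ratio of miR-204 over control for the 39 measured genes, grouped by role, on the first array (circles), the dye-swap array (squares) and as their mean (bars). The mean of PDIA3 alone passes the dashed 1.5-fold lines, and most genes have a mean within 0.25 of 0.

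**Figure D2:**
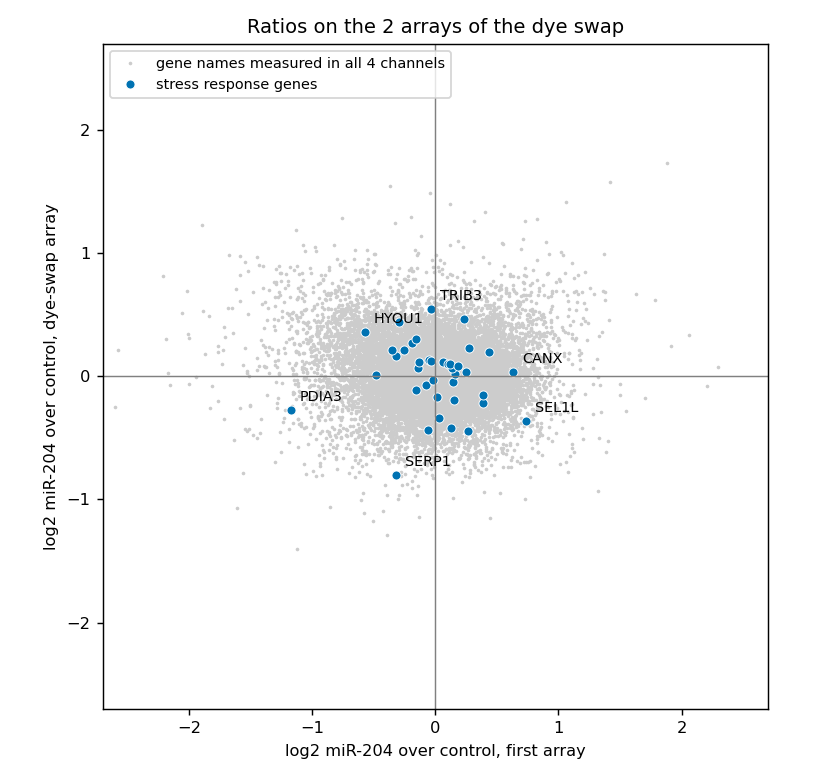
Log2 ratio of miR-204 over control on the first array (x axis) against the dye-swap array (y axis) for 17230 gene names (grey, with 1 outside the plotted range) and the 39 stress response genes (blue). The blue points lie on all sides of the origin, with PDIA3 and SERP1 toward the lower left.

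PDIA3, also called ERp57, is the disulfide isomerase that works with calnexin and calreticulin on glycoproteins, and it was the lowest member. Its signal, the geometric mean over 3 probes, was 1701 in control RNA and 755 in miR-204 RNA on the first array, and 1593 and 1317 on the dye-swap array. The signal was lower in miR-204 RNA on both arrays, by more on the first. The log2 ratios were -1.17 and -0.27, and their mean of -0.72 is 1.65-fold lower.

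All 3 probes of PDIA3 were lower on both arrays. Their ratios on the first and the dye-swap array were -1.35 and -0.37 for the probe at chr15:41849773-41850025 (hg18, as in the files), -1.18 and -0.40 for the probe at chr15:41849792-41850047, and -0.99 and -0.06 for the probe at chr15:41850693-41851050. The first pair overlap and are not separate readings of the transcript. Each position spans more than the 60 bases of a probe, so each probe crosses a gap in its genomic match. The gene ranked 89 from the lowest of 17230, and 0.517% of all gene names were as low or lower. The difference between the arrays divided by 2 was -0.45. Dye and array change together here, so their parts in it cannot be told apart. Without the first array PDIA3 was not past 1.5-fold, and without the dye-swap array it was past 2-fold. RefSeq lists the pseudogenes PDIA3P1 and PDIA3P2, and whether they bind these probes was not tested.

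The other isomerases had ratios nearer 0. PDIA4 had ratios of 0.25 and 0.03, PDIA6 of -0.05 and 0.13, and P4HB, the classical protein disulfide isomerase, of -0.25 and 0.22. The median of the 4 isomerases was 0.01.

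SERP1, a small protein of the ER translocon that protects new membrane proteins under stress, was the next lowest. Its signal over 2 probes was 783 in control RNA and 628 in miR-204 RNA on the first array, and 863 and 496 on the dye-swap array. The miR-204 signal was again lower on both arrays, here by more on the dye-swap array. The ratios were -0.32 and -0.80, with a mean of -0.56, which is 1.47-fold lower and just outside the 1.5-fold limit. The probe at chr3:151743037-151743096 (hg18) gave -0.13 and -0.72 and the probe at chr3:151744557-151744616 gave -0.51 and -0.88. It ranked 234 from the lowest, with 1.36% of gene names as low or lower, and was past 1.5-fold with the authors' series table and without the first array. CRELD2, a secreted ER stress protein, had ratios of 0.14 and 0.07.

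Among the 20 members with more than 1 probe well above background in all 4 channels, SERP1 and PDIA3 were the only ones with every probe lower on both arrays, and ASNS and CEBPB the only ones with every probe higher on both. In 6 of these 20, the probes differed by more than 0.25 in mean ratio, PDIA3 and SERP1 included. The share of all gene names with such probe agreement was not counted, so these counts give no trait of the members.

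**Figure D3:**
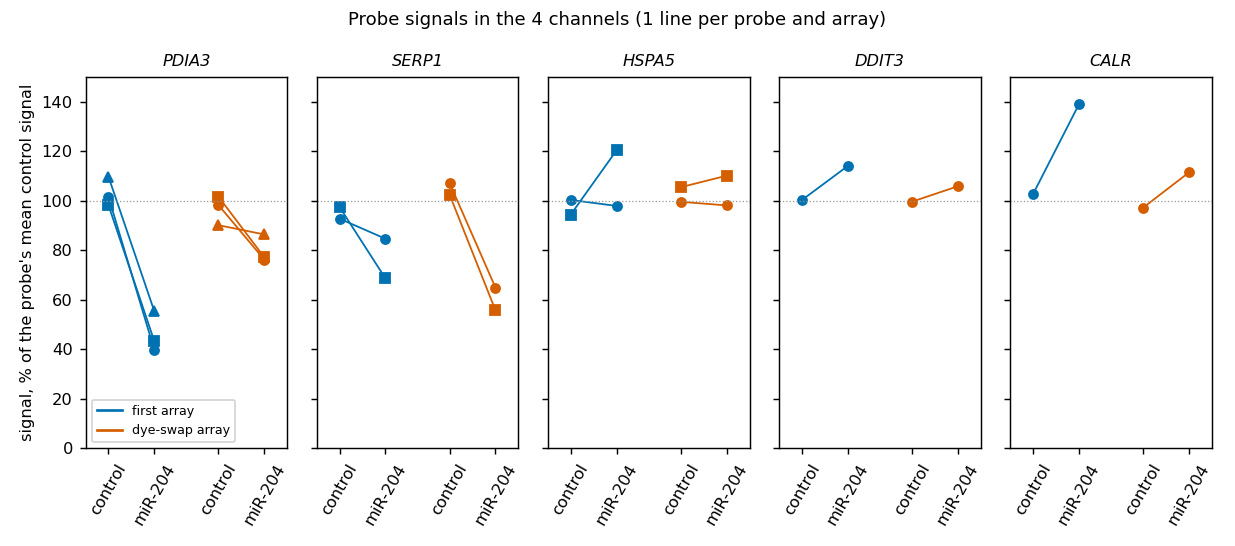
Signal of each probe of PDIA3, SERP1, HSPA5, DDIT3 and CALR in control and miR-204 RNA, as a percentage of the probe's mean control signal, on the first array (blue) and the dye-swap array (orange), with 1 marker shape per probe. Lines of PDIA3 and SERP1 run down on both arrays, those of CALR and DDIT3 run up on both, and the HSPA5 probes run in different directions.

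The chaperones and lectins of the ER lumen split by gene. HSPA5, the Hsp70 chaperone of the ER also called BiP, had a signal of 1828 in control and 2039 in miR-204 RNA on the first array and of 1924 and 1952 on the dye-swap array. These values differed little, with ratios of 0.16 and 0.02 and a mean of 0.09. Its probes gave means of -0.03 and 0.21.

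HSP90B1, the Hsp90 of the ER, had signals of 14153 and 12718 on the first array and of 14144 and 13064 on the dye-swap array, control first. The ratios of -0.15 and -0.11 hide a disagreement between its probes, which had means of -0.41 and 0.14. With the brightest probe alone in place of the mean the ratio was 0.14, so no direction is given for this gene.

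CALR and CANX, the lectin chaperones calreticulin and calnexin that work with PDIA3, were at the other end of the range from it. CALR had signals of 10918 and 14770 on the first array and of 10332 and 11846 on the dye-swap array, higher in miR-204 RNA on both. Its ratios were 0.44 and 0.20, and the mean of 0.32 is 1.25-fold higher. CANX had signals of 907 and 1405 on the first array and of 903 and 923 on the dye-swap array. Its difference lay almost wholly on the first array, with ratios of 0.63 and 0.03 and a mean of 0.33. The brighter probe of CANX gave 0.74 and -0.02, and the dimmer probe 0.53 and 0.09. HYOU1, another Hsp70 of the ER, had opposite ratios of -0.57 and 0.36, and SDF2L1, a partner of HSPA5, had -0.02 and -0.03. The 6 genes of this role had a median of 0.03.

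The sensors and their transcription factors lay on both sides of 0. ERN1 was lower on both arrays and the third lowest member, with signals of 229 and 221 on the first array and of 223 and 166 on the dye-swap array, and ratios of -0.06 and -0.43. It was read by 1 of its 3 probes, and the accession of that probe did not match an entry of the RefSeq table used. The other probes, of which 1 matched the ERN1 entry there, were not well above background in any channel. No direction is read from them. XBP1, whose spliced form is the transcription factor made by IRE1, had signals of 2155 and 1889 on the first array and of 1883 and 2273 on the dye-swap array. Its ratios of -0.19 and 0.27 had opposite signs, and which spliced form its probes bind was not analysed here. ATF6 (0.16 and -0.19), EIF2AK3 (0.14 and -0.04) and WFS1, an ER membrane protein that restrains ATF6 (-0.14 and 0.07), also changed sign between the arrays. The median over these 5 genes was -0.02.

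Of the genes that set eIF2alpha phosphorylation, PPP1R15B had the highest mean. PPP1R15B, the constitutive regulatory subunit that directs protein phosphatase to eIF2alpha, had signals of 63.3 and 74.5 on the first array and of 45.6 and 63.1 on the dye-swap array. It was read by 1 probe, higher in miR-204 RNA on both arrays, with ratios of 0.23 and 0.47 and a mean of 0.35, which is 1.28-fold higher. That mean was 0.20 with normexp and loess and 0.15 with loess and no background correction, in both below those of CALR, CANX and TRIB3. CALR and CANX were also above PPP1R15B with quantile normalization of the ratios. Some other settings also put a member above it, so its rank among the members is not settled. Its stress-induced counterpart PPP1R15A, or GADD34, had ratios of -0.35 and 0.22. EIF2AK4, the amino acid sensor GCN2, had signals of 1443 and 1031 on the first array and of 1337 and 1351 on the dye-swap array, so that its mean of -0.24 came from 1 array. EIF2AK1, the heme-regulated kinase, had ratios of 0.12 and 0.10, but its probes had means of -0.09 and 0.31. EIF2S1, which encodes eIF2alpha, had ratios of 0.02 and -0.17.

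Of the stress transcription factors, ATF4 had signals of 42278 and 33930 on the first array and of 36939 and 41477 on the dye-swap array. The ratios were -0.32 and 0.17, of opposite sign. ATF4 is controlled mainly by translation, which these arrays do not measure. DDIT3, or CHOP, the factor tied to cell death in prolonged stress, had signals of 603 and 686 on the first array and of 599 and 637 on the dye-swap array. It was slightly higher on both, with ratios of 0.19 and 0.09. CEBPB, a partner of ATF4, had signals of 366 and 442 on the first array and of 374 and 438 on the dye-swap array, and close ratios of 0.27 and 0.23. Its mean of 0.25 fell to 0.11 with normexp and loess and to 0.16 with loess and no background correction. ATF3 had -0.16 and 0.30 and ATF2, a stress kinase target, had 0.39 and -0.22.

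Targets of the ATF4 pathway differed in how far their arrays lay apart. Their median absolute log2 ratio was 0.08 on the first array, against 0.25 for all gene names. On the dye-swap array it was 0.38, against 0.16 for all gene names. ASNS, asparagine synthetase, had signals of 3546 and 3805 on the first array and of 3361 and 3612 on the dye-swap array, and ratios of 0.10 on each. Its probes differ widely in brightness. The bright probe had a mean of 0.02 and the dim probe, without a RefSeq match, had 0.18. CHAC1, which breaks down glutathione, had ratios of 0.06 and 0.11. TRIB3, a pseudokinase that feeds back on ATF4 and CHOP, had signals of 1080 and 1057 on the first array and of 898 and 1314 on the dye-swap array. Its mean of 0.26 came from the dye-swap array, with ratios of -0.03 and 0.55. SESN2, a leucine sensor, had -0.30 and 0.45 and NUCB2, a calcium-binding protein, 0.13 and -0.42. VLDLR, a lipoprotein receptor, had signals of 360 and 368 on the first array and of 344 and 272 on the dye-swap array, with ratios of 0.03 and -0.34. The median over the 6 targets was 0.08.

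In ER-associated degradation, which returns misfolded proteins to the cytosol, HERPUD1 had signals of 8981 and 8538 on the first array and of 8566 and 8142 on the dye-swap array. The ratio was -0.07 on each. The other 5 genes of this role all changed sign between the arrays. SEL1L, the scaffold of the HRD1 ligase complex, had 0.74 and -0.36. Its difference between the arrays divided by 2, at 0.55, was the largest in size of any member. The ligase itself, SYVN1, had -0.13 and 0.12, and the mannosidase-like proteins had 0.26 and -0.44 (EDEM1), -0.03 and 0.12 (EDEM2) and 0.39 and -0.15 (EDEM3). The median over the 6 genes was 0.02.

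Genes with the same promoter element were found on both sides of 0. Of the 11 genes with either form of the ER stress element, 4 were lower on both arrays (21.3% of all gene names were). They were SERP1, HERPUD1, SDF2L1 and HSP90B1. Another 4 were higher on both (25.6% of all), HSPA5, CALR, CANX and CRELD2, and 3 changed sign (PDIA6, XBP1, HYOU1). The probes of HSP90B1, HSPA5 and CANX, given above, did not all have the gene's sign on both arrays. The median ratio of the 11 genes was 0.04, and that of the 25 measured members whose promoters held neither form was 0.04. Of the 5 with the ATF4 element, ASNS, CHAC1 and PPP1R15B were higher on both arrays, HERPUD1 was lower on both and ATF3 changed sign. Their median was 0.09, and the counts are to be read against the same 21.3% and 25.6%. With so few genes, these counts give no trait of genes with an element.

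Other genes of the same pathways were listed separately. Of 47 other unfolded protein response genes (translocon, signal peptidase, oxidoreductases and degradation factors), 46 were measured, with a median of 0.04. In that list 5 of 46 were lower on both arrays (21.3% of all gene names were), 9 were higher on both (25.6% of all) and 32 changed sign. By 1.5-fold 0 were lower (0.992% of all) and 0 were higher (1.33% of all), and 76.1% lay within 0.25 of 0. The lowest was PPIB, an ER cyclophilin, with ratios of -0.96 and 0.06. The highest was DNAJB9, an HSPA5 cochaperone, with 0.68 and 0.18.

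Of 49 other integrated stress response genes (eIF2B subunits, amino acid synthesis and transport, tRNA synthetases), 48 were measured, with a median of -0.01. In that list 6 of 48 were lower on both arrays and 11 were higher on both, to be read against the same 21.3% and 25.6%. By 1.5-fold 0 were lower and 0 were higher, against 0.992% and 1.33%, and 75.0% lay within 0.25 of 0. PYCR1, of proline synthesis, was lowest with -0.99 and 0.17. GDF15, a secreted stress cytokine, was highest with 0.36 and 0.69, a mean of 0.52 that lies above that of every member. Cytosolic heat shock genes, a separate stress response taken for comparison, had a median of -0.11 over 13 of 15 genes. They ran from HSPA1A, with -0.71 and -0.18, to HSPH1, with 0.75 and 0.15, and 0 passed 1.5-fold.

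**Figure D4:**
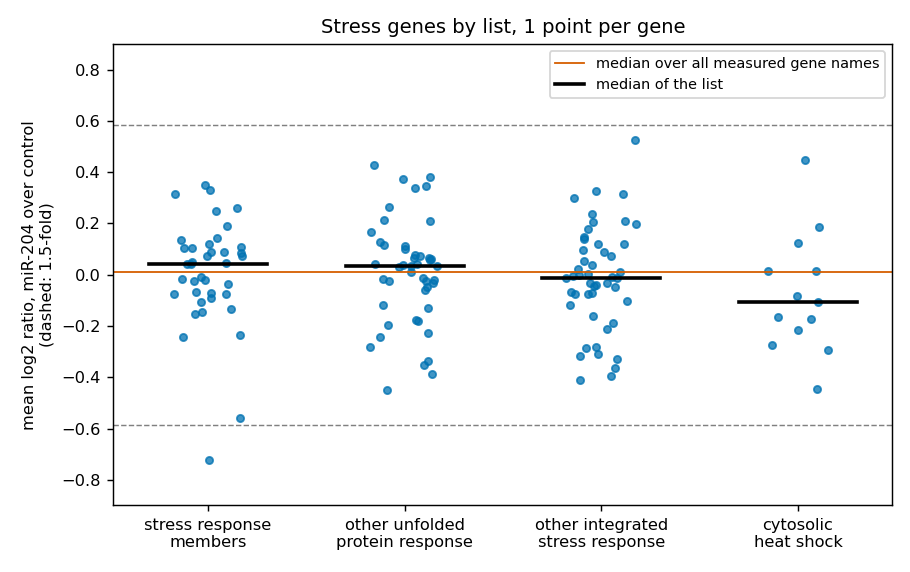
Mean log2 ratio of miR-204 over control, 1 point per gene, for the 39 stress response members and the other lists, with the median of each list (black bar) and of all gene names (orange line). Medians lie between -0.11 and 0.04, and PDIA3 is the only point past a dashed 1.5-fold line.

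Tests over the arrays were run as alternatives only. With limma on the log2 ratios, PDIA3 and SERP1 were the members with an unadjusted p under 0.05, as were 704 of all 17230 gene names. With the methods' t-test over the 4 channels these were CEBPB, EIF2AK1 and HSP90B1, with 1111 of all. After Benjamini-Hochberg adjustment over all gene names, 0 members and 0 gene names passed in either test. Since the arrays are 1 replicate, these p-values describe the arrays and not the conditions.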

How the data were processed

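Per the file headers, the authors extracted the scanned arrays with Feature Extraction 9.5.3.1. The deposited processed signals are intensity values that this software had corrected for background and dye. The mean and local background signals are intensity values deposited without correction, and the deposited ratio column is on a log10 scale, Cy5 against Cy3. The authors' deposited series table gives quantile normalized log2 ratios whose sign is miR-204 against control on both arrays. Probe positions are on hg18.

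Control spots were removed, as were the 128 of 41000 probes that carried an outlier flag, none of them a member's. Spots of a probe were averaged, and log2 processed signals were quantile normalized over the 4 channels with limma 3.58.1 in R 4.3.3. A gene's value is the mean over its probes well above background in all 4 channels (23159 probes, 60 of the members' 64). A call needed 2-fold or 1.5-fold in the mean and the same sign on both arrays. The steps were tested on simulated data. Promoters and microRNAs came from RefSeq tables of GRCh38.p14, which also gave older symbols for the gene lists. Depth does not apply to arrays, and their number, 2, limits the precision.

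The members and the lists were chosen with earlier results of these data known. All measured members may be named with their ratios. Signals are given for the 5 lowest and 5 highest, any past 1.5-fold, and 8 standard readouts (HSPA5, HSP90B1, XBP1, ATF4, DDIT3, ASNS, TRIB3 and HERPUD1). Genes of other lists are named as the lowest and highest of their list and as markers. The alternatives concerned normalization, background correction, choice of deposited values, dim and flagged probes, the probes of a gene, single arrays, the threshold and the test. Matches of the seed in transcripts were not analysed here.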

Additional observations from a re-analysis of the deposited data

How the results depend on the processing

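No paired analysis was possible because 1 pair of RNAs was hybridized. A count was taken as moved when it differed from the main one by over 1.5 times, and a median when it differed by over the SD between the arrays. By this measure 94 values stayed within the limit and 5 moved, which does not say that the genes were the same. The number of members higher on both arrays, 11 in the main setting, fell to 7 when the ratios were quantile normalized, and was 8 with each array's median set to 0 or with normexp, and 15 with the brightest probe. The number lower on both ranged from 5 to 7 around 6. The number lower by 1.5-fold was 2 with the series table, PDIA3 and SERP1, where 142 of all 17230 gene names were lower. It was 0 where 1.5-fold had to be reached on each array. With 1 array left out, the number lower by 2-fold ranged from 0 to 1 (PDIA3 without the dye-swap array), the number higher by 2-fold was 0, the number lower by 1.5-fold was 1 (SERP1 without the first array, PDIA3 without the dye-swap array) and the number higher by 1.5-fold ranged from 0 to 2 (CANX and SEL1L without the dye-swap array). The median over the members was 0.02 and 0.07 on the single arrays, and it was 0.01 with either loess setting. The cause was not tested. Over the 11 alternatives that used both arrays, PDIA3 ranged from -0.86 to -0.68 and SERP1 from -0.60 to -0.43, and 27 of the 39 members kept the sign of their mean. Of those that did not, HSP90B1 had the mean farthest from 0, at -0.13. Differences of that size cannot be resolved with 2 arrays of 1 replicate.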

Other observations

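Among the 60 probes of the members, 11 had a genomic position that spans more than 60 bases, so that they cross a gap in the match, and 5 of these 11 were lower on both arrays, 3 of them probes of PDIA3. Of the other 49 probes, 6 were lower on both. Over the probes of all gene names, the median log2 ratio was -0.05 for the 3312 such probes and 0.02 for the 19766 others, and 25.6% and 21.2% were lower on both arrays. Of the 5 members with 1 probe of each kind, the probe that crosses a gap was the lower one in HSP90B1 (-0.41 against 0.14), HSPA5 (-0.03 against 0.21) and EDEM2 (-0.02 against 0.11), and the higher one in EIF2S1 (0.05 against -0.21) and EDEM1 (-0.02 against -0.16, with a span of 61 bases). This comparison was made after the values were seen, and the part of probe position in the ratio of PDIA3 was not tested.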
